A study of Mus musculus with 18 samples.

Results

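The genes described here are 10 genes used to recognise tuft cells: *Pou2f3*, *Trpm5*, *Gnat3*, *Avil*, *Sh2d6*, *Dclk1*, *Il25*, *Alox5*, *Ptgs1* and *Hpgds*. They were taken by symbol from the 36757 genes of the count table, and all 10 were found. Each was followed through 18 RNA sequencing libraries of C57BL/6 mice, 3 from *RNF138* fl/fl mice (wild type in the labels) and 3 labelled *RNF138*-/- in each of 3 models. In the colitis model, mice aged 6 to 8 weeks drank 2% dextran sulfate sodium (DSS) for 7 days and then water for 14 days, the cycle was repeated, and colorectal tissue was collected 4 weeks after the last cycle. In the colitis-associated cancer (CAC) model, mice of the same age received the carcinogen azoxymethane (AOM) at 10 mg/kg by intraperitoneal injection, and 4 days later the same 2% DSS cycles began. The organoids were grown in matrigel from tumor fragments of the CAC model. All groups therefore carried the floxed or deleted allele on the same background and all had received DSS, directly or through the tumor donor. No library of untreated colon was analysed here. The labels do not say whether libraries of a group came from separate animals or cultures. The p-values weigh group differences against the variation between these libraries, and may not extend to further animals or cultures.

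Tuft cells are rare chemosensory cells of the intestinal epithelium. They are specified by the transcription factor POU2F3 and read luminal metabolites through a taste-type cascade, in which the G protein subunit gustducin leads to opening of the cation channel TRPM5. They answer by releasing the cytokine IL-25, which drives type 2 immunity, as well as acetylcholine and lipid mediators made from arachidonic acid by cyclooxygenases and 5-lipoxygenase. The members are not equally specific. *Dclk1* is also used in neurons, *Alox5* and *Hpgds* in mast cells and macrophages, and *Ptgs1* in stromal cells.

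Total counts were between 11514716 and 24390082 per library. The targeted gene did not follow the labels. *Rnf138* had 16.0, 18.2 and 25.5 CPM (counts scaled to the same library total, TMM-normalized) in the colitis *RNF138* fl/fl libraries and 19.5, 18.1 and 18.7 CPM in those labelled *RNF138*-/-. In CAC it had 28.0, 27.8 and 21.0 CPM against 39.6, 45.3 and 45.3 CPM in the libraries labelled *RNF138*-/- (edgeR log2 fold change 0.72 ± 0.14 SE, adjusted p = 0.0426). In organoids it had 37.4, 52.5 and 55.1 CPM against 49.9, 47.6 and 42.6 CPM. By the test, *Rnf138* RNA was thus called lower in no model, the sources used here do not say which part of the gene was deleted, and every genotype below is the one on the label. The 4 Y-linked genes *Ddx3y*, *Eif2s3y*, *Kdm5d* and *Uty* summed to 0 in the *RNF138* fl/fl organoids, where *Xist* lay between 385.9 and 460 CPM, and to between 240.8 and 280.4 CPM in the organoids labelled *RNF138*-/-. Sex and genotype cannot be told apart in the organoids. All 12 tissue libraries had at least 114.5 CPM of the Y-linked sum.

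The members differed widely in abundance. Per kilobase of exon, in the colitis *RNF138* fl/fl libraries, the highest level was that of *Ptgs1*, the cyclooxygenase COX-1, at 9.54 ± 1.64 CPM per kb (SD, n = 3), followed by *Hpgds*, the hematopoietic prostaglandin D synthase, at 5.79 ± 2.52, and *Sh2d6*, which encodes an SH2 domain adaptor, at 4.65 ± 0.700. *Avil*, the actin-bundling protein advillin, was at 2.47 ± 0.348 and *Trpm5* at 1.99 ± 0.474 CPM per kb. *Gnat3*, the alpha subunit gustducin, at 1.55 ± 0.505, *Dclk1*, a microtubule-associated kinase, at 1.55 ± 0.330, and *Alox5*, the 5-lipoxygenase, at 1.16 ± 0.155 CPM per kb did not differ beyond their spread. *Pou2f3* was at 0.896 ± 0.283 and *Il25* lowest at 0.218 ± 0.231 CPM per kb. The order was not kept in the other models. In the CAC libraries labelled *RNF138*-/-, *Avil* led at 39.2 ± 12.5 CPM per kb and *Trpm5* was at 0.245 ± 0.0506. In the organoids labelled *RNF138*-/-, *Ptgs1* led at 40.9 ± 2.45 CPM per kb and *Avil* was at 3.71 ± 0.210.

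**Figure D1:**
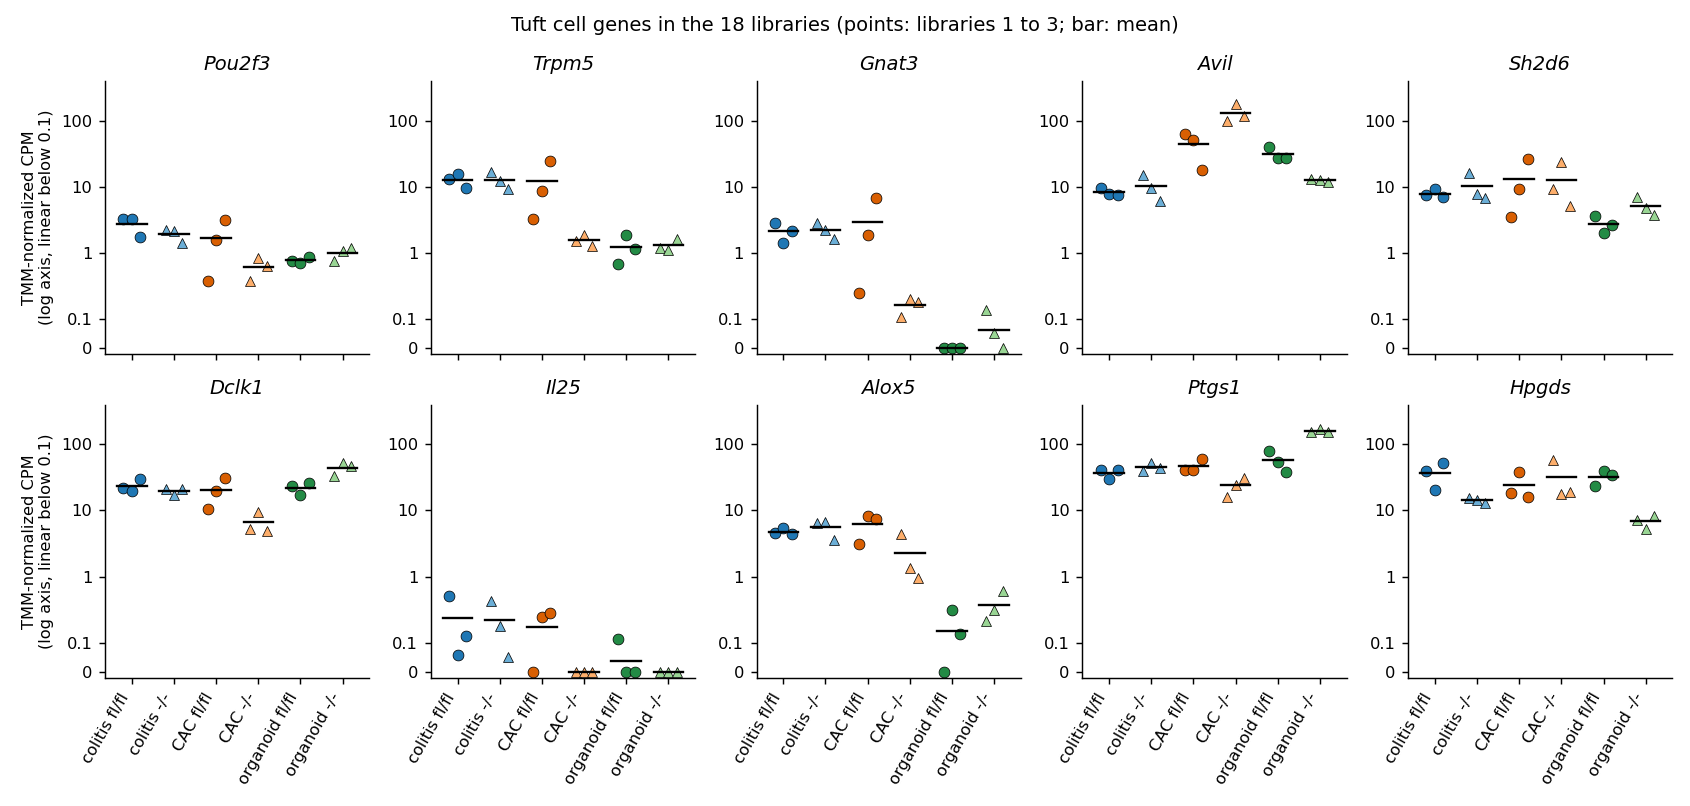
TMM-normalized CPM (log axis, linear below 0.1) of the 10 tuft cell genes in 18 libraries; circles are *RNF138* fl/fl, triangles are labelled *RNF138*-/-, and bars are means of 3 libraries. *Trpm5* lies between 9.33 and 16.6 CPM in colitis and between 0.687 and 1.90 CPM in the CAC libraries labelled *RNF138*-/- and in all organoids, while *Avil* reaches 181 CPM in CAC.

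All 10 genes are protein coding and lie on 8 chromosomes of mm10 (GRCm38, GENCODE M21), with *Sh2d6*, *Hpgds* and *Alox5* all on chromosome 6. *Pou2f3* spans chr9:43123939-43210369, *Trpm5* chr7:143069153-143094642, *Gnat3* chr5:17962549-18019834, *Avil* chr10:127000709-127020994 and *Sh2d6* chr6:72513641-72521707. *Dclk1* spans chr3:55242364-55539068, *Il25* chr14:54932695-54935837, *Alox5* chr6:116410077-116461178, *Ptgs1* chr2:36230426-36252272 and *Hpgds* chr6:65117293-65144908. Exons of *Avil* share 165 bases (4.86% of its exonic length) with *Tsfm* on the opposite strand, those of *Trpm5* 220 bases (3.44%) with *Tssc4*, and those of *Ptgs1* 148 bases (3.81%) with the unclassified transcript *Gm43621*. Whether the counting used strand is not given in the sources used here, so reads of these stretches cannot be assigned to one gene. Between 0% and 3.48% of a member's 50-base windows occurred in another gene.

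RefSeq (GRCm38.p6) gave the 250 bases before the transcription start for 8 of the 10 members, and not for *Pou2f3* or *Il25*. *Dclk1* has 2 annotated starts, 219364 bases apart on the plus strand of chromosome 3, and counts per gene add the long and the short form. The upstream sequences of both starts, of *Trpm5* and of *Avil* are shown because *Trpm5* and *Avil* were at opposite ends of their ranges in CAC and *Dclk1* was high in organoids in which *Trpm5* was low. The octamer ATGCAAAT, a sequence that POU domain factors bind, and its looser form ATGCNAAT, which contains it, were searched on both strands, and any match is in capitals. The octamer was in 526 of 32851 upstream sequences (1.6%) and the looser form in 940 (2.86%). Among the members only *Hpgds* held either, 174 bases before its RefSeq start and 4 bases inside the first exon that GENCODE gives it, in the 5′ UTR. These matches are letters and not measured binding sites.
Dclk1, first start, chr3:55242114-55242363, plus strand: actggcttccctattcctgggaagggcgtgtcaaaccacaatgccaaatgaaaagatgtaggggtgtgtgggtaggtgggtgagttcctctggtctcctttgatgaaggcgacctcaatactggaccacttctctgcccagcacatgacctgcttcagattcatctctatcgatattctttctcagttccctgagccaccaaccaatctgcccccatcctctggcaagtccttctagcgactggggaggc
Dclk1, second start, chr3:55461478-55461727, plus strand: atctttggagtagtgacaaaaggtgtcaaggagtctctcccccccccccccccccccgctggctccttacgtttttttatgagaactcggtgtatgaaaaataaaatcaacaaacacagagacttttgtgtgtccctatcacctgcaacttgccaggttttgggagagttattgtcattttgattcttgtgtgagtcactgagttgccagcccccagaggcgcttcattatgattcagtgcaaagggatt
Trpm5, chr7:143094643-143094892, minus strand: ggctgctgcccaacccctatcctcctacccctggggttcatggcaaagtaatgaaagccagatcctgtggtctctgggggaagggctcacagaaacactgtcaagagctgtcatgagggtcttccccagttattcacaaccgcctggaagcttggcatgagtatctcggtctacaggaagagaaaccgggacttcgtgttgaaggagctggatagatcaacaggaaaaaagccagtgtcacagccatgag
Avil, chr10:127000459-127000708, plus strand: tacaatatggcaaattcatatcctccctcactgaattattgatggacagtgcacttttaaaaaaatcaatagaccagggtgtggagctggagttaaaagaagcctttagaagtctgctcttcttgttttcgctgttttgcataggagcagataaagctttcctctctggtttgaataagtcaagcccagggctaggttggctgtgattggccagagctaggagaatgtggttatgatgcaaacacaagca
Hpgds, 30 bases around the octamer, chr6:65144886-65144915, minus strand: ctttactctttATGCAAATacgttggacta

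The first comparison set the colitis libraries labelled *RNF138*-/- against those of *RNF138* fl/fl mice. A call required an adjusted p below 0.05 together with a change of 2-fold or more. By edgeR, 0 of the 9 members tested were called, where 0.0902% of all 16623 genes tested were. At an unadjusted p under 0.05 there was 1 member, against 10.4% of all genes, and DESeq2 called 1 (2.06% of all genes). *Il25* had too few counts to be tested. The median log2 fold change of the members was 0.09, beside 0.02 over all genes.

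*Hpgds* was the only member whose genotypes did not overlap in colitis (17.5% of all genes did not overlap). Its level was 39.1, 20.2 and 52.4 CPM in the *RNF138* fl/fl libraries and 15.7, 14.5 and 13.02 CPM in those labelled *RNF138*-/- (edgeR log2 fold change −1.34 ± 0.33 SE, adjusted p = 0.208). The *RNF138* fl/fl libraries were all higher and also more scattered. DESeq2 gave an adjusted p of 0.0104 for this gene and edgeR without a filter on low counts 0.0105. Since HPGDS is also a mast cell enzyme, mast cell markers are given beside it. Of the 11, 10 were at or below 2.70 CPM in every colitis library, and *Kit*, a receptor that pacemaker cells of the gut wall also carry, was at 128.3, 130 and 145 CPM in the *RNF138* fl/fl libraries against 74.7, 84.2 and 89.6 CPM. The part of other cells in the *Hpgds* difference was not tested.

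The chemosensory members overlapped between genotypes in colitis. *Trpm5* had 13.3, 15.4 and 9.47 CPM in *RNF138* fl/fl libraries and 16.6, 12.2 and 9.33 CPM in those labelled *RNF138*-/-. *Gnat3* had 2.79, 1.42 and 2.13 CPM against 2.82, 2.24 and 1.61 CPM. *Pou2f3* had 3.25, 3.29 and 1.76 CPM against 2.22, 2.18 and 1.41 CPM. The ranges overlapped for all 3, and their log2 fold changes were 0.01 (SE 0.28), 0.09 (SE 0.37) and −0.50 (SE 0.36). *Dclk1* had 21.7, 19.9 and 29.4 CPM against 21.2, 17.3 and 21.3 CPM. *Avil*, with 9.75, 7.84 and 7.59 CPM against 14.9, 9.49 and 6.10 CPM, and *Sh2d6*, with 7.41, 9.20 and 6.96 CPM against 16.0, 7.80 and 6.71 CPM, were each highest in library 1 labelled *RNF138*-/-. *Ptgs1* was between 29.7 and 52.1 CPM and *Alox5* between 3.58 and 6.77 CPM over the 6 libraries, with overlapping genotypes. The edgeR adjusted p of these 8 members lay between 0.676 and 0.99.

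*Il25* was near the limit of detection. It had 9, 1 and 2 counts in the colitis *RNF138* fl/fl libraries and 7, 3 and 1 in those labelled *RNF138*-/-. In CAC it had 0, 5 and 3 counts in the *RNF138* fl/fl libraries and 0 in all 3 labelled *RNF138*-/-, which by 3 counts per library allows a mean of up to 0.138 CPM. The exact Poisson 95% intervals of the summed counts were 0.0725 to 0.331 CPM in *RNF138* fl/fl and 0 to 0.056 CPM in the libraries labelled *RNF138*-/-, and 1 *RNF138* fl/fl library also had 0 counts. Intervals and limits cover counting error only. In the organoids 1 library of 6 had counts, with 2. The gene was too low to be tested between genotypes.

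In CAC the comparison of genotypes again called 0 members by edgeR, of 8 tested, where 5.37% of 17752 genes were called. Here the fold changes were large for some members and small for *Sh2d6* and *Hpgds*. The *RNF138* fl/fl libraries spread widely for *Trpm5*, at 12.3 ± 11.2 CPM (SD, n = 3), and less for *Ptgs1*, at 47.3 ± 11.1 CPM. At an unadjusted p under 0.05 there were 4 members, against 33.8% of all genes, and DESeq2 called 4 (13.9% of all genes): *Dclk1*, *Trpm5*, *Avil* and *Ptgs1*. One edgeR fit of all 18 libraries, in which *Gnat3* passed the filter, also called 4 (14.6% of all genes): *Dclk1*, *Trpm5*, *Avil* and *Gnat3*. The median log2 fold change of the members was −1.25, beside 0.01 over all genes. Of the 8 tested members, 4 did not overlap between genotypes, against 44.6% of all genes.

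*Trpm5* had 3.25, 8.78 and 24.9 CPM in the CAC *RNF138* fl/fl libraries and 1.54, 1.90 and 1.26 CPM in those labelled *RNF138*-/- (edgeR log2 fold change −3.03 ± 0.76 SE, adjusted p = 0.0589). Without *RNF138* fl/fl library 3 the log2 fold change was −1.94 (adjusted p = 0.0562), and without library 1 it was −3.50 (adjusted p = 0.0491). Every library labelled *RNF138*-/- was below every *RNF138* fl/fl library. In bulk tissue, fewer cells of a type and less RNA per cell cannot be told apart. *Gnat3* showed the same order, with 4, 39 and 74 counts against 2, 5 and 4, or 0.250, 1.87 and 6.84 CPM against 0.106, 0.202 and 0.179 CPM, and was removed by the filter in this fit. *Pou2f3* had 0.375, 1.58 and 3.14 CPM against 0.372, 0.850 and 0.628 CPM, which overlap, with a log2 fold change of −1.47 (SE 0.74, adjusted p = 0.209). Among the *RNF138* fl/fl libraries all 3 were lowest in library 1 and highest in library 3. *Dclk1* followed the same order, with 10.6, 19.7 and 31.2 CPM against 5.21, 9.59 and 4.93 CPM (edgeR log2 fold change −1.69 ± 0.47 SE, adjusted p = 0.0709).

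*Avil* had a log2 fold change of opposite sign in CAC. It had 63.2, 51.5 and 18.1 CPM in the *RNF138* fl/fl libraries and 100.2, 181 and 119 CPM in those labelled *RNF138*-/- (edgeR log2 fold change 1.56 ± 0.45 SE, adjusted p = 0.0739). All libraries labelled *RNF138*-/- were higher, and *RNF138* fl/fl library 3, the highest for *Trpm5*, was the lowest for *Avil*. *Avil* was between 0.507 and 0.899 times *Trpm5* in each of the 6 colitis libraries, 19.5, 5.87 and 0.729 times in the CAC *RNF138* fl/fl libraries and 65, 95.2 and 94.6 times in the CAC libraries labelled *RNF138*-/-. The ratio in CAC *RNF138* fl/fl library 3 was within the colitis range. *Sh2d6* ranked the *RNF138* fl/fl libraries as *Trpm5* did, with 3.50, 9.46 and 26.4 CPM against 9.40, 23.8 and 5.20 CPM, overlapping, and a log2 fold change of −0.10 (SE 0.83, adjusted p = 0.944), whose direction turned with other scalings.

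**Figure D2:**
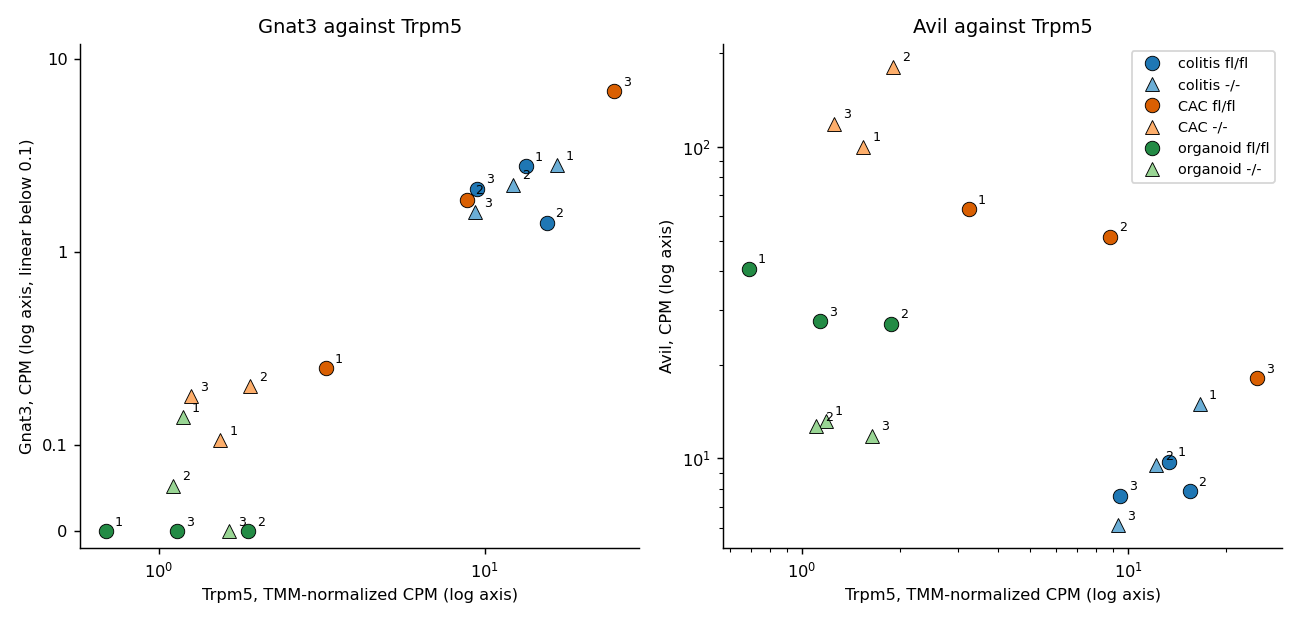
*Gnat3* (left) and *Avil* (right) against *Trpm5*, all in TMM-normalized CPM on log axes (the *Gnat3* axis is linear below 0.1); each point is 1 of 18 libraries, numbered by replicate. In CAC the libraries lowest in *Trpm5* are lowest in *Gnat3*, while *Avil* is highest, between 100.2 and 181 CPM, in the 3 CAC libraries with *Trpm5* between 1.26 and 1.90 CPM.

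Among the enzymes of lipid mediators, *Ptgs1* had 41.2, 40.5 and 60.1 CPM in the CAC *RNF138* fl/fl libraries and 16.0, 24.6 and 31.1 CPM in those labelled *RNF138*-/- (edgeR log2 fold change −1.03 ± 0.30 SE, adjusted p = 0.0749), with no overlap. *Alox5* had 3.06, 8.25 and 7.31 CPM against 4.46, 1.34 and 0.942 CPM, and *Hpgds* 18.1, 37.6 and 16.0 CPM against 57.7, 17.6 and 19.3 CPM, both overlapping. *RNF138* fl/fl library 2 and library 1 labelled *RNF138*-/- were the highest of their group for *Hpgds* and for *Alox5*. The same libraries had the most mast cell markers, which summed to 125.7, 560.4 and 142.5 CPM in *RNF138* fl/fl libraries and 264.2, 64.7 and 79.5 CPM in those labelled *RNF138*-/-. The mast cell protease *Mcpt1* alone made up 240.7 and 87.9 CPM in these 2 libraries. Over the 12 tissue libraries, after centring each group, *Hpgds* correlated with the mast cell sum at r = 0.83, *Alox5* at 0.72 and *Trpm5* at −0.01, a description of libraries that share their depth and preparation. *Hpgds* also correlated with the summed B and plasma cell markers at 0.76. *Alox5* was at 0.66 with the summed neuron and glia markers and at 0.56 with the summed goblet cell markers. In the colitis *RNF138* fl/fl libraries the mast cell sum, 131.4 to 148.2 CPM, was mostly *Kit*, at 128.3 to 145 CPM. Without library 1 labelled *RNF138*-/- the log2 fold change of *Hpgds* in CAC was −0.41 rather than 0.36. The part of mast cells in these values was not tested.

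**Figure D3:**
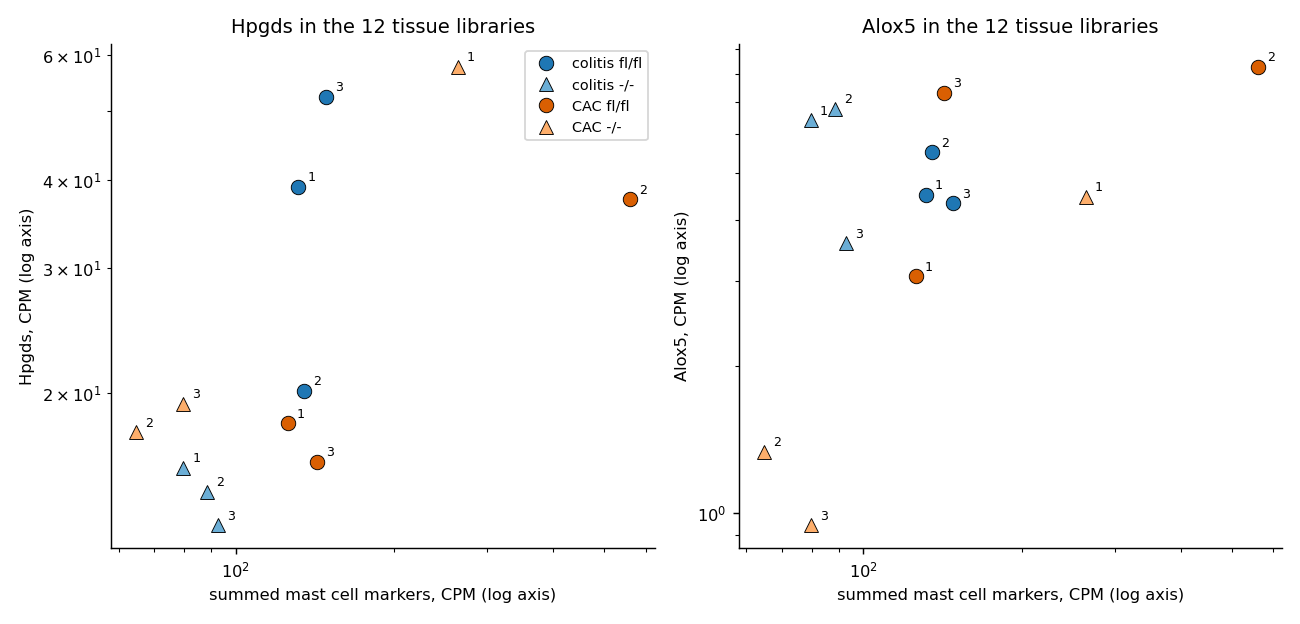
*Hpgds* (left) and *Alox5* (right) against the summed level of 11 mast cell markers in the 12 tissue libraries, in CPM on log axes, numbered by replicate. CAC *RNF138* fl/fl library 2 (560.4 CPM of markers) and CAC library 1 labelled *RNF138*-/- (264.2 CPM) lie to the right, with 37.6 and 57.7 CPM of *Hpgds*.

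Markers of other cells also differed between the CAC genotypes. The 6 smooth muscle markers, summed, were between 2547 and 8194 CPM in *RNF138* fl/fl libraries and between 113 and 240 CPM in those labelled *RNF138*-/-, the 10 colonocyte markers between 3566 and 18040 against 190.7 and 588 CPM, the 8 goblet cell markers between 13690 and 41790 against 1576 and 2615 CPM, and the 7 B and plasma cell markers between 1527 and 2357 against 125.8 and 222.3 CPM. The 10 pan-epithelial markers, such as *Epcam*, were between 10990 and 19430 CPM against 8258 and 10150 CPM, with 0 called by edgeR, and the 7 neutrophil markers between 56.4 and 244 against 192 and 421.7 CPM. With library sizes set by the pan-epithelial markers, which moved the median of all genes by 0.71 on the log2 scale, the log2 fold change was −2.13 for *Trpm5*, −0.88 for *Dclk1*, −0.23 for *Ptgs1* and 2.21 for *Avil*. Relative to epithelial RNA, *Trpm5* (adjusted p = 0.0616) and *Avil* (adjusted p = 0.0509) lay near the threshold, and *Ptgs1* (adjusted p = 0.598) and *Dclk1* (adjusted p = 0.174) did not. Of the 10 enteric neuron and glia markers, which concern *Dclk1*, 4 were called lower. The part of tissue composition was not tested.

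**Figure D4:**
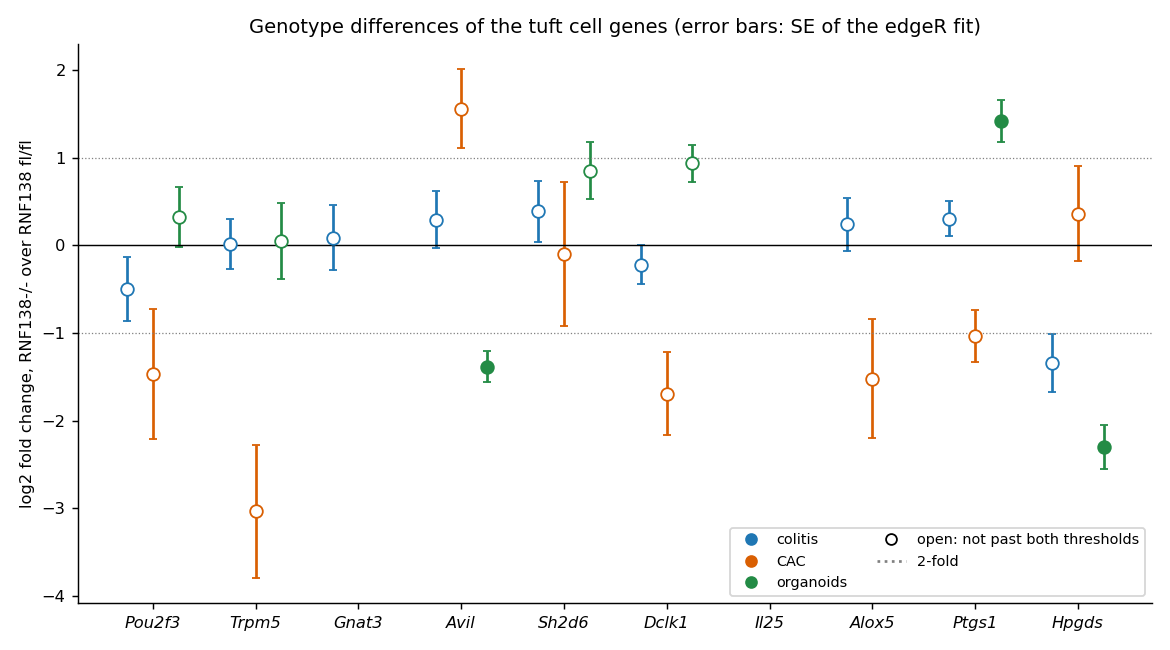
Log2 fold change of libraries labelled *RNF138*-/- over *RNF138* fl/fl for each member tested in colitis, CAC and organoids, with the SE of the edgeR fit; filled points passed both thresholds (adjusted p below 0.05, 2-fold), and dotted lines mark 2-fold. *Trpm5* is at −3.03 in CAC and at 0.01 and 0.05 in colitis and organoids, and the filled points are *Avil*, *Ptgs1* and *Hpgds* in organoids.

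CAC was then compared with colitis within each genotype. In *RNF138* fl/fl libraries 1 of 9 members was called (13.6% of 19390 genes), which was *Avil*, higher (9.78% of all genes were called higher). It was also the only member without overlap, against 34.2% of all genes. It was 7.59 to 9.75 CPM in colitis and 18.1 to 63.2 CPM in CAC (edgeR log2 fold change 2.41 ± 0.38 SE, adjusted p = 0.000473). *Trpm5* averaged 12.3 ± 11.2 CPM in CAC (SD, n = 3) against 12.8 ± 3.03 in colitis and *Dclk1* 20.5 ± 10.3 against 23.7 ± 5.05 CPM. Their means were close, and the CAC libraries spread from below to above the colitis range. In the same comparison 10 of 11 mast cell markers were called higher and 1 lower, and 6 of 7 neutrophil markers were called higher. Of the goblet cell markers 1 of 8 was called lower, and of the enteroendocrine markers 2 of 8. Their part in the *Avil* change was not tested.

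In the libraries labelled *RNF138*-/-, 6 of 9 members were called between CAC and colitis, where 37.1% of all genes were, and 7 of 9 did not overlap, where 59.1% of all genes did not. *Trpm5* fell from 12.7 ± 3.66 to 1.57 ± 0.324 CPM (edgeR log2 fold change −3.01 ± 0.56 SE, adjusted p = 0.000371). *Gnat3* fell from 2.22 to 0.163 CPM (−3.69, SE 0.90, adjusted p = 0.00324), *Dclk1* from 19.9 to 6.58 CPM (−1.60, SE 0.35, adjusted p = 0.0012) and *Pou2f3* from 1.93 to 0.616 CPM (−1.62, SE 0.54, adjusted p = 0.0181). *Avil* rose from 10.2 ± 4.45 to 133 ± 42.3 CPM (edgeR log2 fold change 3.72 ± 0.40 SE, adjusted p = 4.84e-06). *Hpgds* rose from 14.4 to 31.6 CPM (1.13, SE 0.44, adjusted p = 0.0393), and this call was lost without CAC library 1 (log2 fold change 0.36, adjusted p = 0.449) and without colitis library 1, 2 or 3 (adjusted p = 0.0717, 0.113 and 0.11). That of *Pou2f3* was lost without CAC library 1 (−1.37, adjusted p = 0.0701). *Sh2d6* did not pass, at 10.2 and 12.8 CPM. *Ptgs1*, at 44.9 and 23.9 CPM, had an adjusted p of 0.00994 and a change under the fold threshold. *Alox5* was at 5.59 and 2.25 CPM, overlapping (−1.32, SE 0.57, adjusted p = 0.0614), and was called without CAC library 1 (−2.28, adjusted p = 0.00495) or colitis library 3 (−1.61, adjusted p = 0.0378). Relative to pan-epithelial markers, *Dclk1* (−0.82, adjusted p = 0.0781) and *Pou2f3* (−0.82, adjusted p = 0.198) were no longer called, while *Trpm5*, *Gnat3*, *Avil* and *Hpgds* were, and the median of all genes moved by 0.75. Of all genes, 50.2% were then called, in place of 37.1%. Of the 11 mast cell markers, which concern *Hpgds*, 10 were called higher in CAC than in colitis in these libraries and 1, *Kit*, lower. The marker sums overlapped, at 79.6 to 92.6 CPM in colitis and 64.7 to 264.2 CPM in CAC. Of the 10 enteric neuron and glia markers, which concern *Dclk1*, 9 were called lower (sums of 84.5 to 204 CPM in colitis and 28.5 to 55.8 CPM in CAC), as were all 8 enteroendocrine, all 8 goblet cell and all 10 colonocyte markers. Their part in these changes was not tested.

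The genotype difference itself differed between CAC and colitis for 3 of 9 members, against 11.9% of all genes. The difference of log2 fold changes was −2.98 for *Trpm5* (SE 0.75, edgeR, adjusted p = 0.0167), −4.18 for *Gnat3* (SE 1.16, adjusted p = 0.0286) and −1.28 for *Ptgs1* (SE 0.38, adjusted p = 0.0359). Relative to pan-epithelial markers, which moved the median of all genes by 0.67 in this contrast, *Trpm5* (−2.12, adjusted p = 0.0481) and *Gnat3* (−3.30, adjusted p = 0.0469) were called, *Avil* (1.97, adjusted p = 0.0396) and *Hpgds* (2.27, adjusted p = 0.0383) were added, and *Ptgs1* was no longer called (−0.53, adjusted p = 0.386). Of all genes, 13% were called at that scaling. Without CAC *RNF138* fl/fl library 3, the library with the most *Trpm5* and *Gnat3*, only *Trpm5* was called, at −1.93 (adjusted p = 0.0455), with *Gnat3* at −2.73 (adjusted p = 0.0827) and *Ptgs1* at −1.04 (adjusted p = 0.101), and 1399 rather than 2314 of all genes were called. *Trpm5* passed whichever of the 12 tissue libraries was left out. The *Gnat3* call was also lost without colitis *RNF138* fl/fl library 2 or 3, colitis library 1 labelled *RNF138*-/- or any CAC library labelled *RNF138*-/- (adjusted p between 0.0549 and 0.0652). The *Ptgs1* call was also lost without colitis *RNF138* fl/fl library 1 or 2, colitis library 2 labelled *RNF138*-/- or CAC library 1 or 2 labelled *RNF138*-/- (adjusted p between 0.0513 and 0.0781). These comparisons share their CAC libraries with those above. In the same contrast all 10 colonocyte, all 6 smooth muscle and all 7 B and plasma cell markers were called lower. So were 9 of 10 neuron and glia, 4 of 8 goblet cell and 2 of 10 pan-epithelial markers, with 0 of 11 mast cell and 0 of 6 fibroblast markers called. The part of these cells was not tested.

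The other genes of the tuft cell program, listed from common knowledge of the cell type, also held genes that moved in both directions. Of 22 further epithelial tuft genes, 20 were tested between CAC and colitis in the libraries labelled *RNF138*-/-, of which 3 were called higher and 11 lower (17.5% and 19.6% of all genes). Relative to pan-epithelial markers 11 of the 20 were called, and the calls over all genes went from 3392 higher and 3804 lower to 7694 and 2039. *Ffar3*, a short-chain fatty acid receptor, went from between 1.41 and 3.36 CPM to 1 count in 3 libraries. *Hmx2*, a homeobox factor, went from between 0.807 and 3.60 to at most 0.0809 CPM, and *Chat*, which makes acetylcholine, from between 1.71 and 2.996 to at most 0.121 CPM. The 3 genes that rose were *Nebl*, an actin-associated nebulette (3.67 to 119 CPM, log2 fold change 5.02, SE 0.48, adjusted p = 1.94e-06), *Krt23*, a keratin (7.16 to 178.4 CPM, 4.63, SE 0.51) and *Smpx*, a small muscle protein (5.33 to 44.1 CPM, 3.04, SE 0.47). In *RNF138* fl/fl libraries these 3 genes were also called higher, with log2 fold changes of 2.99, 3.04 and 2.56, and edgeR called none of the list lower. *Nebl* in the CAC *RNF138* fl/fl libraries was 55.4, 46.8 and 8.33 CPM, so library 3 was the lowest, as for *Avil*.

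Between the CAC genotypes, 2 of the 14 further epithelial genes tested were called, both lower (4.83% of all genes were): *Rgs13*, a regulator of G protein signaling, with 2.44, 3.55 and 8.60 CPM against 0.266, 0.364 and 0.179 CPM (−4.18, SE 0.64, edgeR, adjusted p = 0.029), and *Inpp5j*, a phosphoinositide phosphatase, with 69.6, 73.8 and 139.9 CPM against 20.4, 21.7 and 27.8 CPM (−2.08, SE 0.33, adjusted p = 0.031). Of 15 tested genes that tuft cells share with leukocytes, *Spib*, an ETS factor also of B and M cells, was called lower, at 13.1 CPM against 0.892 CPM. With library 1, 2 or 3 labelled *RNF138*-/- left out, edgeR called 0 of the further epithelial genes, and it then called 0, 0 and 109 of all genes. Without *RNF138* fl/fl library 1 or 3 it called 4, with 287 and 1136 of all genes called. The difference of genotype differences between CAC and colitis was called for 10 of 20 further epithelial genes, 1 higher (*Nebl*, 2.04) and 9 lower, led by *Ffar3*, *Chat* (−4.36) and *Rgs13* (−3.98), where 2.57% and 9.37% of all genes were. Relative to pan-epithelial markers 6 of the 20 were called, and over all genes 1634 were then called higher and 890 lower, in place of 498 and 1816. In colitis edgeR called 0 of 19 between genotypes, with 2 at an unadjusted p under 0.05 (10.4% of all genes), and DESeq2 called 1, *Il17rb* (2.06% of all genes).

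*Il17rb*, a subunit of the IL-25 receptor, is described although the naming rule did not select it, and was chosen after its values were seen. It had 2.74, 2.67 and 1.44 CPM in the colitis *RNF138* fl/fl libraries and 11.4, 9.07 and 5.04 CPM in those labelled *RNF138*-/-, with no overlap (log2 fold change 1.91, SE 0.39, edgeR, adjusted p = 0.17). Its CAC levels were 3.19, 7.15 and 9.90 CPM against 6.32, 4.37 and 2.601 CPM, which overlap, and the difference of genotype differences was called (−2.52, SE 0.75, adjusted p = 0.0367). In the type 2 circuit of IL-25, IL-33 and their responders, edgeR called 0 of 13 genes between genotypes in colitis, with 4 at an unadjusted p under 0.05 (10.4% of all genes) and 2 by DESeq2 (2.06%). In CAC it called 0 of 13, with 3 at an unadjusted p under 0.05 (33.8% of all genes) and 2 by DESeq2 (13.9%), and it called 2 of 13 in the organoids, both higher (7.94% of all genes were), with 8 at an unadjusted p under 0.05 (47.4% of all genes) and 4 by DESeq2 (15.2%). The 2 were *Rora*, a factor of innate lymphoid cells, and *Il13ra1*, an IL-13 receptor subunit, with log2 fold changes of 1.15 and 1.04. Between CAC and colitis in the libraries labelled *RNF138*-/-, 2 of 14 were called higher and 2 lower (17.5% and 19.6% of all genes). *Il1rl1*, the IL-33 receptor, rose from 6.51 to 79.7 CPM and *Il33* from 6.61 to 52.6 CPM, while *Retnlb*, a goblet cell product of type 2 responses, fell from 1220 to 8.39 CPM. In *RNF138* fl/fl libraries *Retnlb* rose instead, from 4.33 to a mean of 914 CPM, with 12, 577 and 2153 CPM in the CAC libraries (log2 fold change 7.76, SE 1.53, edgeR, adjusted p = 0.00231). Without CAC library 3 the mean was 294.7 CPM and the log2 fold change 6.08 (adjusted p = 0.00403). In colitis it was at 3.71, 4.14 and 5.14 CPM in *RNF138* fl/fl and at 1810, 1755 and 94.3 CPM in the libraries labelled *RNF138*-/- (8.14, SE 1.11, adjusted p = 0.0525), with no overlap. Of the taste-type transduction list, which shares *Ffar3*, *Sucnr1* and others with the list above, 3 of 9 genes were called between CAC and colitis in the libraries labelled *RNF138*-/-, all lower, where 19.6% of all genes were, and edgeR called 0 between genotypes in any of the 3 models. At an unadjusted p under 0.05 there were 0 of 7, 2 of 6 and 1 of 5 in colitis, CAC and organoids (10.4%, 33.8% and 47.4% of all genes), and DESeq2 called 0, 1 and 0 (2.06%, 13.9% and 15.2%).

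Across the 12 tissue libraries, centred on their 4 groups, *Trpm5* correlated with *Pou2f3* at r = 0.92, with *Gnat3* at 0.90, with *Sh2d6* at 0.89 and with *Dclk1* at 0.73, but with *Avil* at −0.47, *Ptgs1* at 0.23 and *Hpgds* at −0.16. Of the further epithelial genes, *Chat* was at 0.94, *Sh2d7*, *Ly6g6f* and *Ffar3* at 0.88, and *Krt23* and *Nebl* at −0.76 and −0.82. These values describe libraries that share preparation and tissue. The spread of *Trpm5* within a group was widest among the CAC *RNF138* fl/fl libraries, with an SD of 11.2 CPM, and between 0.324 and 3.66 CPM in the other tissue groups. Likeness was ranked, by a rule set with the lists, to the mean of *Trpm5*, *Pou2f3*, *Avil* and *Sh2d6*. Since *Avil* ran against the other 3 (r = −0.47, −0.34 and −0.22), this mean follows the pattern of neither. The 10 genes highest on it were *Rbpms* (r = 0.95), *Gm11627*, *Tgfb1i1* and *Col8a2* (0.94), and *Rgma*, *Nectin1*, *Lims2*, *Map1a*, *Cacna1h* and *Wdr78* (0.93), none of them on the tuft lists. *Trpm5* itself correlated with the smooth muscle sum at 0.73 and with the goblet cell sum at 0.66. *Avil* correlated with the macrophage and monocyte sum at 0.73, the neutrophil sum at 0.73 and the fibroblast sum at 0.72. With the colonocyte sum it was at −0.68. The part of these cells in the *Avil* values was not tested.

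**Figure D5:**
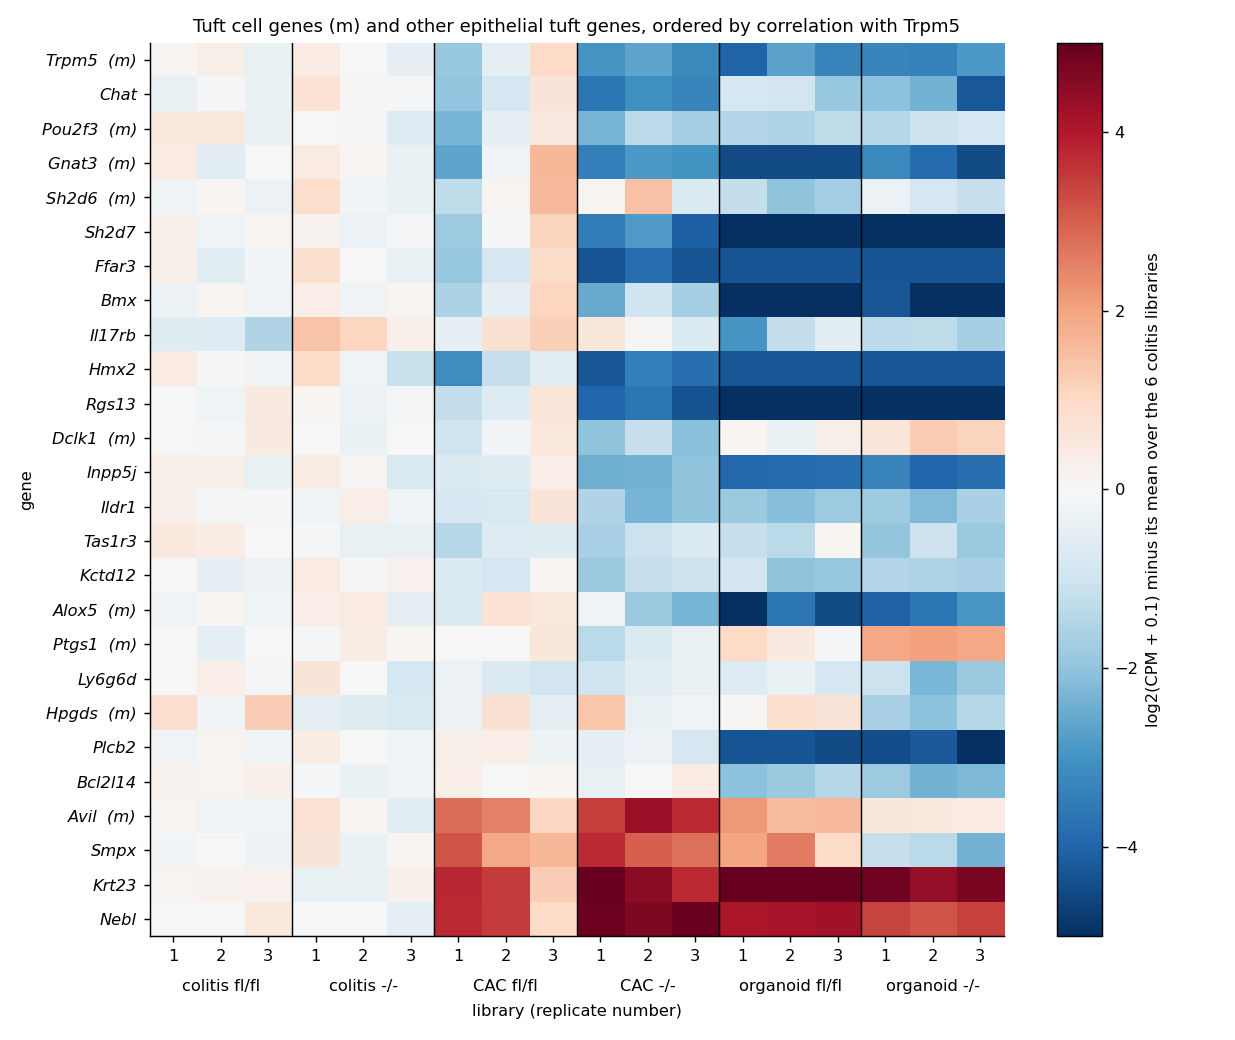
Log2(CPM + 0.1) of the members (m) and the further epithelial tuft genes with a mean of at least 1 CPM in tissue, minus the mean over the 6 colitis libraries, in each of 18 libraries; rows are ordered by their centred correlation with *Trpm5* over 12 tissue libraries. In CAC libraries labelled *RNF138*-/- most upper rows are blue and *Avil*, *Smpx*, *Krt23* and *Nebl* at the bottom are red. Among the CAC libraries, *RNF138* fl/fl library 3 has the highest *Trpm5* (24.9 CPM) and the lowest *Avil* (18.1 CPM).

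In the organoids *Gnat3*, *Trpm5* and *Pou2f3* were at most 1.88 CPM in every library. *Gnat3* had 0 counts in the 3 *RNF138* fl/fl organoid libraries and 2, 1 and 0 counts in those labelled *RNF138*-/-. *Trpm5* had 0.687, 1.88 and 1.14 CPM against 1.18, 1.11 and 1.64 CPM, and *Pou2f3* 0.744, 0.705 and 0.869 CPM against 0.766, 1.05 and 1.19 CPM. Neither was called (log2 fold changes 0.05, SE 0.43, and 0.33, SE 0.34). *Sh2d7*, *Hmx2* and *Ffar3* had 0 counts in all 6 organoid libraries, whereas *Chat* lay between 0 and 0.916 CPM and *Tas1r3*, a taste receptor subunit, between 0.488 and 2.34 CPM. These 5 genes were chosen after their values were seen. *Avil*, *Dclk1*, *Ptgs1* and *Hpgds* were between 5.33 and 170 CPM in every organoid library.

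Between organoid genotypes, 3 of 7 members tested were called, where 15% of 15294 genes were. *Ptgs1* rose from 80.1, 54.6 and 37.8 CPM in *RNF138* fl/fl to 152.7, 170 and 154 CPM in libraries labelled *RNF138*-/- (edgeR log2 fold change 1.42 ± 0.24 SE, adjusted p = 0.00429). *Avil* fell from 40.6, 27.1 and 27.6 CPM to 13.2, 12.7 and 11.8 CPM (−1.38, SE 0.18, adjusted p = 0.002). *Hpgds* fell from 23.5, 39.6 and 34.7 CPM to 7.10, 5.33 and 8.25 CPM (−2.30, SE 0.25, adjusted p = 0.00131). The genotypes did not overlap for any of the 3, nor for *Dclk1*, with 23.1, 17.2 and 26.1 CPM against 32.7, 52.1 and 46.5 CPM, whose log2 fold change of 0.94 (SE 0.21, adjusted p = 0.0112) was under the fold threshold. *Sh2d6* also did not overlap, with 3.66, 2.04 and 2.61 CPM against 7.04, 4.802 and 3.79 CPM, and missed the threshold (0.86, SE 0.32, adjusted p = 0.0695). Of all genes, 53.2% did not overlap. *Alox5* had at most 8 counts in an organoid library and was not tested.

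Markers of cells other than epithelium were present in the organoid libraries, at unequal levels. The 6 fibroblast markers, collagen genes among them, summed to 23060, 8935 and 9659 CPM in *RNF138* fl/fl organoids and to 40110, 49520 and 46050 CPM in those labelled *RNF138*-/-, against at most 1740 CPM in any tissue library, and 5 of the 6 were called higher. Pan-epithelial markers summed to between 10820 and 11960 CPM against 6353 and 9335 CPM. Of the 10 macrophage markers 7 were tested and 5 called higher, and their sum was between 24.5 and 36.2 against 103.5 and 159.1 CPM. *RNF138* fl/fl library 1 had the most fibroblast markers and the most *Ptgs1* of its group. Mast cell markers summed to between 26.4 and 40.0 CPM against 8.13 and 11.98 CPM, while *Cpa3*, *Fcer1a* and *Tpsab1* were at 0 in all 6 libraries. Relative to pan-epithelial markers, which moved the median of all genes by 0.58, the log2 fold change was 2.02 for *Ptgs1*, 1.56 for *Dclk1* (then called, adjusted p = 6.51e-08), −1.75 for *Hpgds* and −0.79 for *Avil* (no longer past the fold threshold). The part of fibroblasts, macrophages and mast cells in these values was not tested.

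The eicosanoid genes around the members moved in the organoids too. Of 11 tested, 5 were called higher and 1 lower (7.94% and 7.04% of all genes). *Ptges*, which makes prostaglandin E2, rose from 78.5 to 213 CPM (1.39, SE 0.29, edgeR, adjusted p = 0.0095), *Ptgis*, the prostacyclin synthase, from 32.9 to 106.4 CPM (1.65, SE 0.31) and the receptor *Ptger2* from 0.420 to 1.71 CPM (2.00, SE 0.52). *Ptgds*, the other prostaglandin D synthase, fell from 20.5 to 6.99 CPM (−1.61, SE 0.36, adjusted p = 0.0114), in the same direction as *Hpgds*. In CAC, *Hpgd*, which degrades prostaglandins, was lower in libraries labelled *RNF138*-/- at 24.9 against 208 CPM (−3.13, SE 0.61, adjusted p = 0.0406), as was *Ptgis* (−2.12, SE 0.43, adjusted p = 0.0429), the only 2 of 15 tested (4.83% of all genes were called lower). *RNF138* fl/fl library 3 weighs on the *Hpgd* mean, with 137.3, 119.8 and 366.2 CPM against 15.0, 19.4 and 40.2 CPM, without overlap. With the covariate of Y-linked genes, or without library 1 or 2 labelled *RNF138*-/-, edgeR called 0 of all genes in CAC. The Y-linked sum there was 192 to 223.4 CPM in *RNF138* fl/fl and 146.4 to 201.6 CPM in libraries labelled *RNF138*-/-. With these transcripts in every library, the covariate held no contrast of sexes and could not adjust for sex. Among further epithelial tuft genes, 2 of 10 tested were called lower in the organoids, *Smpx* from 18.6 to 1.54 CPM (−3.62, SE 0.49) and *Krt23* from 536.5 to 203 CPM (−1.46, SE 0.21), which are among the 3 that rose with *Avil* between colitis and CAC.

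Set against CAC tissue, the *RNF138* fl/fl organoids had 4 of 9 members called, all lower, where 44.3% of all genes were called in either direction and 26.8% lower. The Y-linked sum was 0 in these organoids and between 192 and 223.4 CPM in the CAC *RNF138* fl/fl tissue. Sex and culture therefore cannot be told apart in this comparison. *Trpm5* fell from 12.3 to 1.23 CPM (−3.32, SE 0.59, edgeR, adjusted p = 0.000174, and −2.27 without CAC library 3), *Alox5* from 6.21 to 0.149 CPM (−5.41, SE 0.79, and −4.76 and −6.46 without organoid library 1 and 2) and *Sh2d6* from 13.1 to 2.77 CPM (−2.22, SE 0.64, adjusted p = 0.00734). Without CAC library 3 the *Sh2d6* call was lost (−1.18, adjusted p = 0.0866). *Gnat3* fell to 0 counts. Its CAC mean was 14.8-fold the level that 3 counts per organoid library would give, and 5.24-fold without CAC library 3. CAC library 1, at 0.250 CPM, lay close to that level of 0.202 CPM. Beside *Alox5*, which leukocytes also carry, 9 of 10 macrophage markers and 7 of 11 mast cell markers were called lower in this comparison (sums of 374.1 to 897.1 CPM falling to between 24.5 and 36.2, and of 125.7 to 560.4 CPM to between 26.4 and 40.0). All 10 colonocyte, all 8 goblet cell and 5 of 6 smooth muscle markers were also called lower, and 5 of 6 fibroblast markers higher. The part of these cells in the members' changes was not tested. In the libraries labelled *RNF138*-/-, *Dclk1* rose from 6.58 to 43.7 CPM (2.73, SE 0.36) and *Ptgs1* from 23.9 to 158.8 CPM (2.73, SE 0.28), while *Avil* fell from 133 to 12.6 CPM (−3.40, SE 0.39), *Alox5* from 2.25 to 0.373 CPM (−2.57, SE 0.69) and *Hpgds* from 31.6 to 6.90 CPM (−2.19, SE 0.46), so that 5 of 9 were called against 44.4% of all genes. Without CAC library 1 the log2 fold changes were −1.62 for *Alox5* and −1.43 for *Hpgds*. In this comparison all 6 fibroblast markers were called higher, and 9 of 10 macrophage and 10 of 11 mast cell markers lower, and their part was not tested either. *Trpm5*, already low in this tissue, did not pass the test, at 1.57 and 1.31 CPM (−0.27, SE 0.57).

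The genotype difference in organoids differed from that in CAC for 5 of 9 members (18.9% of all genes). It was higher in organoids by 2.6 on the log2 scale for *Dclk1* (SE 0.48, edgeR, adjusted p = 0.00171), by 3.05 for *Trpm5* (SE 0.81, adjusted p = 0.0138, and 2.01 without CAC *RNF138* fl/fl library 3) and by 2.43 for *Ptgs1* (SE 0.38, adjusted p = 0.000545), and lower for *Avil* (−2.95, SE 0.52, adjusted p = 0.00114) and *Hpgds* (−2.66, SE 0.63, adjusted p = 0.0071, and −1.88 without CAC library 1 labelled *RNF138*-/-). For *Dclk1*, *Ptgs1*, *Avil* and *Hpgds* the fitted log2 fold changes between genotypes had opposite signs in CAC and in organoids, but that of *Hpgds* in CAC turned from 0.36 to −0.41 without library 1 labelled *RNF138*-/-. For *Trpm5* it was a difference in CAC against a log2 fold change of 0.05 in organoids. Sex cannot be told apart from genotype in the organoids, nor therefore in these differences.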

How the data were processed

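Count values are those the authors deposited: whole reads per gene of 36757 genes in 18 libraries, not normalized. Per the labels and the study's methods, RNA libraries (TruSeq) were sequenced paired-end and aligned to mm10. The submitters' processing notes name STAR 2.6.1d, HTSeq 0.11.2 and DESeq2 without their roles. The strand setting is not given in the sources used here. A second deposited table, of the authors' own comparisons (fold changes and p-values), was not used.

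Genotypes were compared within each model (6 libraries) with edgeR 4.0.16 in R 4.3.3, by the quasi-likelihood test with TMM scaling, filterByExpr and Benjamini-Hochberg adjustment over all genes tested. Calls required an adjusted p below 0.05 together with a change of 2-fold or more, the thresholds of the study. Models, and differences of genotype differences, were tested in 1 fit of 18 libraries. CPM are TMM-scaled over all 18. Exact permutation tests of 3 against 3 libraries cannot go below p = 0.1 and gave 0.1 for each member without overlap. Replicates of a group differed by more than counting noise. Alternatives were other scalings, filters, DESeq2 1.42.0, no minimum fold, fits of fewer or more groups, a replicate block, a covariate of Y-linked genes and each library left out. All tissue libraries had Y-linked transcripts, so the covariate held no contrast of sexes there. Scripts were tested on simulated counts. Every member was named, and from each further list at most 3 genes called in each direction, by size. The further lists were epithelial tuft genes, tuft genes shared with leukocytes, taste-type transduction, eicosanoid genes and the type 2 circuit. Genes were ranked by likeness to the mean of *Trpm5*, *Pou2f3*, *Avil* and *Sh2d6* on 12 tissue libraries centred on group means, among genes of at least 1 CPM on average. The members, lists and tests were chosen with earlier results of these data known.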

Additional observations from a re-analysis of the deposited data

Results flagged for a closer look

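These 8 results were set apart because the genotype difference of a member differed between models by a test of the difference itself (edgeR, 1 fit of 18 libraries). Between CAC and colitis, the log2 fold change of libraries labelled *RNF138*-/- over *RNF138* fl/fl differed by −2.98 for *Trpm5* (adjusted p = 0.0167), −4.18 for *Gnat3* (adjusted p = 0.0286) and −1.28 for *Ptgs1* (adjusted p = 0.0359). Every CAC library labelled *RNF138*-/- was below every CAC *RNF138* fl/fl library for these 3 genes, while the genotypes overlapped in colitis. Leaving out CAC *RNF138* fl/fl library 3 left 1 of the members called and 1399 rather than 2314 of all genes. Relative to pan-epithelial markers *Ptgs1* was at −0.53 (adjusted p = 0.386).

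Between organoids and CAC, the difference was 2.6 for *Dclk1* (adjusted p = 0.00171), 3.05 for *Trpm5* (adjusted p = 0.0138), 2.43 for *Ptgs1* (adjusted p = 0.000545), −2.95 for *Avil* (adjusted p = 0.00114) and −2.66 for *Hpgds* (adjusted p = 0.0071). The organoid genotypes also differ in the sex-linked transcripts, which cannot be told apart from genotype there. The CAC libraries entered both sets of differences.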

How the results depend on the processing

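The number of members called between genotypes depended on the tool in the tissue models. The calls over all genes changed too, and are given in brackets. In colitis it was 0 (15), and 1 without a filter on low counts (354) or by DESeq2 (343). In CAC it was 0 (954), and 3 without a filter (1641), 4 by DESeq2 (2463), 4 in one fit of all 18 libraries (2833) and 1 with a replicate block (1079), and with the Y-linked covariate it was 0 (0). For the difference between CAC and colitis it was 3 (2314), and 5 without a filter (2615) or by DESeq2 (2916). Leaving out 1 library gave 0 to 0 members in colitis, 0 to 1 in CAC (1 without *RNF138* fl/fl library 1 or 3), 3 to 4 in organoids, 1 to 2 for CAC against colitis in *RNF138* fl/fl (2 without CAC library 3), 5 to 7 in those labelled *RNF138*-/-, 3 to 5 and 5 to 6 for organoids against CAC, 1 to 4 for the difference between CAC and colitis, and 5 to 8 for that between organoids and CAC (8 without CAC *RNF138* fl/fl library 1). Over all genes, the share called with 1 library left out ranged from 0% to 0.87% in colitis, 0% to 6.16% in CAC and 9.63% to 20% in organoids, from 7% to 15% for the difference between CAC and colitis and from 14% to 19.8% for that between organoids and CAC. For CAC against colitis it was 8.6% to 15.7% in *RNF138* fl/fl and 33.6% to 39.4% in libraries labelled *RNF138*-/-. For organoids against CAC it was 40.3% to 43% and 40.3% to 42.7%.

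Among the members' results recomputed, directions turned only for values that were not called. *Trpm5* in colitis became −0.028 without TMM scaling, −0.013 relative to pan-epithelial markers, −0.006 without a filter and −0.054 with the Y-linked covariate. In organoids it became −0.16 without TMM, and between CAC and colitis in *RNF138* fl/fl 0.006 by DESeq2. *Sh2d6* in CAC became 0.29 without TMM, 0.84 relative to pan-epithelial markers, 0.22 with the replicate block and 1.28 with the Y-linked covariate, and its difference between CAC and colitis became 0.51 relative to pan-epithelial markers. With 1 library left out, 25 fits changed sign. In colitis *Trpm5* ranged from −0.21 to 0.18, *Gnat3* from −0.14 to 0.33, *Avil* from −0.078 to 0.55 and *Sh2d6* from −0.083 to 0.61. In CAC *Sh2d6* ranged from −0.89 to 0.98 and *Hpgds* from −0.41 to 0.84, and in organoids *Trpm5* from −0.24 to 0.49. Between CAC and colitis in *RNF138* fl/fl, *Trpm5* ranged from −1.08 to 0.41, *Dclk1* from −0.64 to 0.10, *Sh2d6* from −0.28 to 1.19 and *Gnat3* from −0.96 to 1.03, and in libraries labelled *RNF138*-/- *Sh2d6* from −0.48 to 0.81. Between organoids and CAC in *RNF138* fl/fl, *Dclk1* ranged from −0.20 to 0.58 and *Ptgs1* from −0.01 to 0.53. The genotype difference of *Sh2d6* ranged from −1.23 to 0.61 for CAC against colitis and from −0.11 to 1.74 for organoids against CAC.

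Same-numbered libraries of the 2 genotypes correlated at 0.2, 0.078 and 0.436 (colitis libraries), 0.043, 0.19 and 0.067 (CAC) and −0.176, −0.069 and 0.055 (organoids) after centring, so the numbers were not taken as pairs. Colitis *RNF138* fl/fl library 3 correlated with libraries 1 and 2 labelled *RNF138*-/- at −0.29 and −0.232, so these values do not settle pairing in colitis. The replicate block gave 0, 1 and 3 members called in the 3 models, where 0.535%, 6.08% and 13.5% of all genes were called. For the differences between models it gave 4 and 6, where 12.5% and 19.3% of all genes were called. Among called genes of CAC, 97 were higher and 857 lower, against 249 and 453 relative to pan-epithelial markers, and in organoids 1215 and 1077 against 3533 and 415. The share of calls that were higher also moved with that scaling from 47.1% to 79.1% for CAC against colitis in libraries labelled *RNF138*-/- (62% without TMM) and from 21.5% to 64.7% for the difference between CAC and colitis (36.7% without TMM). For organoids against CAC it moved from 39.5% to 52.8% in *RNF138* fl/fl, and in those labelled *RNF138*-/- it was 40.3%, and 21.1% without TMM. For the difference between organoids and CAC it was 60.2%, and 30.7% without TMM. In organoids it was 53%, and 36.2% without TMM. Low counts limited *Il25*, *Gnat3* and *Alox5*. The causes of these changes were not tested.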

Other observations

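The genes whose centred levels over the 12 tissue libraries were most like those of *Trpm5* alone, a choice made after values were seen, were *Aldh1a2*, a retinaldehyde dehydrogenase (r = 0.95), *Chat*, the acetylcholine synthase of tuft cells (0.94), *Ccsap* (0.94) and *Nol4l* (0.93), out of 16007 ranked. *Skap2*, an adaptor that tuft cells share with leukocytes, was at −0.98. These values are a description of 12 libraries and carry no test.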
